A study of Mus musculus with 2 samples.

Results

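Deep layer cortical excitatory nuclei were examined in a single-cell ATAC-seq (scATAC-seq) experiment on sham and stroke mouse brains, a method that tags accessible DNA of single nuclei with a transposase (Tn5) and reads the tagged pieces out by nucleus. The nuclei were selected by fragments over the bodies and 2 kb upstream of 6 genes, Hs3st4, Tle4, Fezf2, Tbr1, Syt6 and Foxp2. A nucleus was taken when these fragments exceeded the number expected from its depth by at least 3 square roots of that number and there were at least 5 of them, and it was dropped when the same score for the GABAergic genes Gad1, Gad2 and Slc32a1 reached 1. The rule found 337 nuclei among 5949 kept in the sham library and 221 among 4380 kept in the stroke library, so 558 of 10329 in all. Both libraries came from wild-type (WT) C57BL/6J male mice of 8 to 12 weeks. The stroke library pooled the ipsilateral hemispheres of 4 brains taken 48 h after a 1 h occlusion of the middle cerebral artery followed by reperfusion, and the sham library pooled 4 brains of mice with sham surgery at the same time. Brains were flash-frozen without olfactory bulbs and cerebellum, so cortex, striatum, hippocampus and thalamus were mixed, and the cortical depth of a nucleus was not recorded. With 1 pooled library per condition no test between sham and stroke was possible. All intervals below are exact 95% intervals that cover counting error alone, and neither nuclei nor fragments are replicates.

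Excitatory neurons of the deep cortical layers send axons out of the cortex or across it. Corticothalamic neurons of layer 6 project to the thalamus, extratelencephalic neurons of layer 5 project to the brainstem and spinal cord, and intratelencephalic neurons stay within the forebrain. Tbr1 and Fezf2 encode transcription factors that specify corticothalamic and subcerebral identity during development, and Tle4, a corepressor, and Foxp2, a forkhead factor, are kept in layer 6 neurons of the adult. Hs3st4 encodes a heparan sulfate sulfotransferase and Syt6 a synaptotagmin, and both are used as markers of layer 6. The middle cerebral artery supplies lateral cortex and striatum, so these neurons lie partly within the territory that is deprived of blood in this model.

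The selected nuclei had a median of 13427 fragments in sham and 12207 in stroke, above the medians of 11532 and 11225 of all kept nuclei, and held 4619960 and 2725747 fragments in total. Their median share of fragments in peaks was 38.6% in sham and 33.7% in stroke, and their median enrichment at transcription start sites was 22.3 and 19.4. The stroke library was lower on both measures also over all kept nuclei, at 33.7% against 39.3% and 20.5 against 22.9, so every stroke and sham comparison below contains this difference between libraries. Kept nuclei of both libraries shared 34 barcode sequences, 5 of which belonged to a selected nucleus in one library, and none was selected in both. Nuclei that passed the same score for the upper layer genes Cux2, Rorb, Rasgrf2, Calb1, Lamp5 and Mdga1 (389 in sham, 175 in stroke) or for the striatal spiny projection genes Drd1, Drd2, Adora2a, Ppp1r1b, Rarb and Rgs9 (488 in sham, 218 in stroke) were used for comparison. The drop on GABAergic genes was applied to the upper layer nuclei but not to the spiny projection nuclei. Nuclei of the deep layer selection were left out of both sets. These comparison nuclei were named only by the genes that gated them.

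The genes of the rule were higher in the selected nuclei by construction, and their levels are given as a description. Levels are given as CPM, the fragments over the gene divided by all fragments of the same nuclei and multiplied by 1000000. Hs3st4 (chr7, 418 kb with its upstream part) lay at 565 CPM in sham and 660 CPM in stroke, against 105 and 109 CPM in the nuclei not selected, and it supplied 40.7% and 46.4% of all fragments over the 6 genes. Foxp2 (chr6, 543 kb) lay at 354 and 304 CPM against 78.0 and 93.3 CPM. Tle4 (chr19, 152 kb) lay at 256 and 247 CPM against 106 and 103 CPM, and Syt6 (chr3, 72.3 kb) at 158 and 161 CPM against 50.7 and 54.1 CPM. The short transcription factor genes gave few fragments: Tbr1 (chr2) 175 in sham and 72 in stroke (37.9 and 26.4 CPM against 18.8 and 16.3 CPM), and Fezf2 (chr14) 81 and 65 (17.5 and 23.8 CPM against 7.41 and 7.86 CPM). Per kb of gene the order was different, with Tbr1 at 2.87 and 2.00 CPM per kb and Fezf2 at 2.17 and 2.95, above Hs3st4 at 1.35 and 1.58 and Foxp2 at 0.653 and 0.560. An Hs3st4 fragment was found in 88.7% of selected nuclei in each library, but also in 51.2% (sham) and 52.4% (stroke) of nuclei not selected and in 63.5% and 64.2% of spiny projection comparison nuclei. Presence of a fragment over so long a gene therefore did not mark a cell type, and the excess over the depth is what the rule selected on. Gad1, which encodes a GABA-synthesizing enzyme, lay at 20.6 and 20.5 CPM after the drop, against 53.8 and 50.9 CPM in nuclei not selected.

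**Figure D1:**
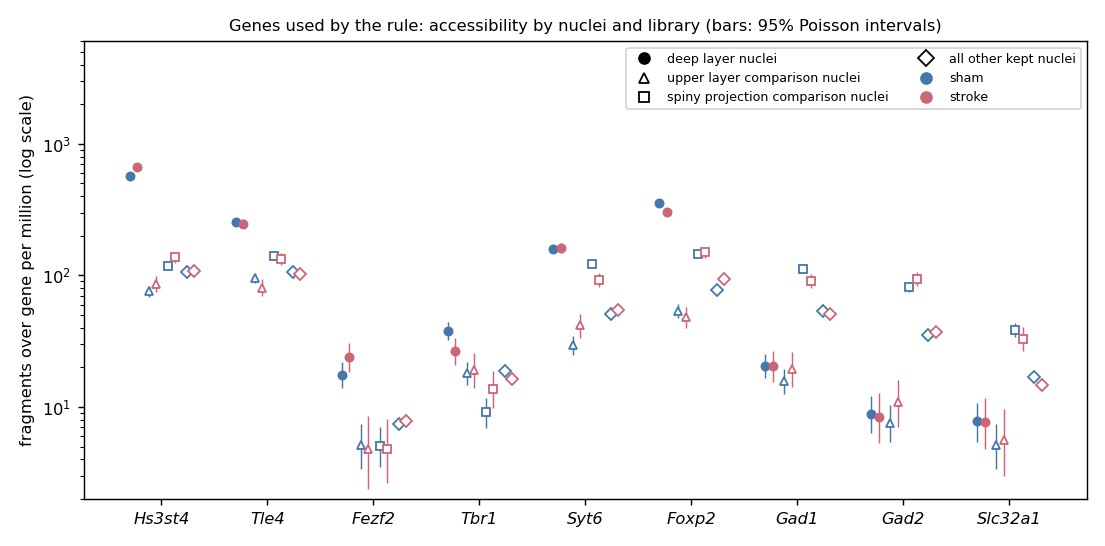
CPM of each gene of the rule (log axis) for the selected nuclei (filled circles), the upper layer and spiny projection comparison nuclei and all other kept nuclei (open symbols), with sham in blue and stroke in red and exact 95% Poisson intervals. Hs3st4 reached 565 and 660 CPM in the selected nuclei against 105 and 109 in the others, while Foxp2 and Syt6 were also high in the spiny projection nuclei, Foxp2 at 146.5 and 150.2 CPM.

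The selection graded into the remaining nuclei without a gap. Scores had a median of 4.83 in sham and 4.17 in stroke, with 115 of 337 and 101 of 221 nuclei between 3 and 4, 20 and 13 at 10 or more, and 199 and 164 kept nuclei just below, between 2 and 3. The nearest nuclei inside the threshold scored 3.003, 3.004 and 3.007, the first with 20 marker fragments where 10.3 were expected, and the nearest outside scored 2.991, 2.989 and 2.989, the last with 20 fragments where 10.4 were expected. Hs3st4 was the gene with the largest excess in 43.3% of selected sham nuclei and 44.3% of selected stroke nuclei, and Foxp2 in 26.4% and 24.4%. Fragments over at least 4 of the 6 genes were present in most selected nuclei, with exactly 4 in 32.3% and 35.7%, 5 in 18.7% and 14.0%, and all 6 in 3.56% and 2.26%. Of the selected nuclei, 28 in sham and 18 in stroke also reached the spiny projection score, and 13 and 4 the upper layer score.

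Each gene was also read in nuclei gated on the other 5, which it had not helped to choose. In 11 of these 12 readings the left-out gene stood above the nuclei not gated, by 1.24-fold to 1.98-fold. Hs3st4, read in 248 sham and 155 stroke nuclei, was at 192 and 252 CPM, which was 1.46-fold (1.34 to 1.58) and 1.88-fold (1.71 to 2.07) above the others. Fezf2 was 1.98-fold (1.52 to 2.55) and 1.81-fold (1.28 to 2.50) above them. Tbr1 stood at 1.61-fold (1.35 to 1.92) in sham but at 0.944-fold (0.681 to 1.28) in stroke, where only 44 fragments were counted. The left-out genes were raised less than within the full gate. Of the nuclei gated on 5 genes, 72.0% (without Hs3st4) to 97.1% (without Fezf2) belonged to the full gate, so the readings overlapped. The label deep layer describes the rule, and the marker lists below show how far other genes followed it.

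The share of deep layer nuclei was 5.66% (5.09% to 6.28%) of kept nuclei in sham and 5.05% (4.42% to 5.74%) in stroke, a ratio of 0.891 (0.748 to 1.06) whose interval includes 1. The filters on fragments in peaks had kept 85.2% of the 6979 barcodes called as cells in sham but 50.1% of the 8740 in stroke. Over these called barcodes the selected nuclei were 4.83% and 2.53%, a ratio of 0.524 (0.440 to 0.622), so the ratio of shares depended on the denominator. The share differed with depth. Over 4 depth bins of about equal size over all kept nuclei, from the shallowest (up to 7308 fragments) to the deepest (15947 or more), 3.62%, 4.52%, 7.02% and 7.39% of sham nuclei were selected and 3.32%, 5.53%, 6.12% and 5.2% of stroke nuclei. The share rose through all 4 bins in sham but not in stroke, and stroke was above sham in the second bin. With a score of at least 4 the numbers were 222 and 120 and the ratio of shares was 0.734. Sham brains and ipsilateral hemispheres were different tissue pieces, so loss of nuclei and sampling of tissue cannot be told apart in these shares.

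Of 5 genes of layer 6 corticothalamic neurons that the rule had not used, 3 (Grik3, Thsd7b and Crym) were above upper layer nuclei in both libraries, as were 29.7% of all tested genes, and Grik3 was so by 2-fold in both, as were 0.126% of all tested genes. Over Ntsr1, Rprm, Crym, Thsd7b and Grik3 together the selected nuclei had 555 CPM (534 to 577) in sham and 606 CPM (577 to 636) in stroke, against 280 and 315 CPM in upper layer nuclei, 305 and 363 CPM in spiny projection nuclei and 360 and 372 CPM in all others. The intervals of the selected nuclei and of each other set did not overlap in either library. As a per-nucleus score of 3 or more on this list, 19.6% and 19.9% of selected nuclei passed, against 6.90% and 6.68% of nuclei not selected. Most of the sum came from the long genes Grik3, a kainate receptor subunit, and Thsd7b, a thrombospondin-domain protein. Grik3 had 1206 fragments (261 CPM) in sham and 762 (280 CPM) in stroke, and Thsd7b 994 (215 CPM) and 679 (249 CPM). Ntsr1, the neurotensin receptor whose Cre driver line is a classical label of these cells, gave 166 and 76 fragments, at 35.9 and 27.9 CPM against 27.8 and 29.0 CPM in upper layer nuclei, so it was not separated from them. Rprm was likewise at 15.4 and 16.1 CPM against 10.8 and 18.2 CPM, and Crym, which encodes a thyroid hormone binding protein, at 27.9 and 33.0 CPM against 15.97 and 25.6 CPM.

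Other deep layer lists followed less. Layer 5 extratelencephalic genes stood at 352 and 310 CPM, above upper layer nuclei at 232 and 227 CPM, while spiny projection nuclei had 391 and 306 CPM. Bcl11b, a transcription factor of both subcerebral and striatal neurons, supplied 197 and 147.1 CPM of that sum. Layer 6b genes were at 136 and 143 CPM against 150 and 130 CPM in upper layer nuclei, and layer 5 near-projecting genes at 201 and 232 CPM against 209 and 186 CPM, so the order of the groups turned between libraries for both. Deep layer intratelencephalic genes were at 239 and 315 CPM against 209 and 243 CPM, but spiny projection nuclei had 247 and 305 CPM and nuclei not selected 257 and 313 CPM, and the intervals of the selected nuclei overlapped those of both sets in each library. The deep layer transcription factors outside the rule were higher than in upper layer nuclei in both libraries for 7 of 8 genes, where 29.7% of all tested genes were. The 7 were Bcl11b, Sox5, Zfpm2, Otx1, Foxp1, Etv1 and Ldb2, but 0 of the 8 reached 2-fold in both, where 0.126% of all tested genes did. Against spiny projection nuclei only 4 of the 8 were higher in both libraries and 3 were lower in both. Their median log2 ratio there was 0.31 in sham and 0.011 in stroke, against -0.0089 and -0.020 for all tested genes. Zfpm2, a cofactor of GATA factors, was at 177 and 238 CPM against 104 and 95.8 CPM.

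The pan-excitatory list (Slc17a7, the vesicular glutamate transporter of cortical neurons, with Neurod2, Neurod6, Neurod1, Emx1, Sv2b, Camk2a, Nrgn, Bhlhe22 and others) stood at 674 and 619 CPM, against 668 and 695 CPM in upper layer nuclei, 501 and 498 CPM in spiny projection nuclei and 586 and 509 CPM in the others. A score of 3 on this list was reached by 11.9% and 9.05% of selected nuclei, against 10.0% and 11.4% of upper layer nuclei and 8.23% and 6.06% of nuclei not selected. Slc17a7 itself was at 69.0 and 58.7 CPM, against 30.0 and 29.2 CPM in spiny projection nuclei. Upper layer genes outside the comparison gate were low, at 518 and 477 CPM against 765 and 677 CPM in upper layer nuclei. Spiny projection nuclei had 781 and 609 CPM and nuclei not selected 653 and 589 CPM, so in sham this list was not highest in upper layer nuclei. The pan-excitatory level was close to that of upper layer nuclei in sham and below it in stroke, and it differed with the gene that led the score. In the 146 sham and 98 stroke nuclei led by Hs3st4 the pan-excitatory list reached 731 and 711 CPM, in the 89 and 54 led by Foxp2 640 and 540 CPM, in the 46 and 25 led by Tle4 632 and 660 CPM, and in the 39 and 30 led by Syt6 597 and 498 CPM.

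Markers of other cells remained in the selection. The spiny projection list outside its gate (Pde10a and others) was at 687 and 568 CPM, above upper layer nuclei at 483 and 523 CPM and far below spiny projection nuclei at 1415 and 958 CPM. It was also above nuclei not selected, at 626 and 528 CPM, with intervals that did not overlap in either library. A score of 3 on it was reached by 14.2% and 6.79% of selected nuclei, against 10.9% and 5.96% of those not selected. The list was at 730 and 624 CPM in nuclei led by Foxp2 and 579 and 563 CPM in those led by Hs3st4. Nuclei led by Syt6 had 808 and 530 CPM and those led by Tle4 765 and 504 CPM, so the order turned between libraries. GABAergic genes outside the rule were at 146.5 and 171 CPM against 202 and 212 CPM in nuclei not selected. Astrocyte genes were at 515 and 511 CPM against 505 and 553 CPM, oligodendrocyte genes at 92.0 and 83.3 CPM against 94.1 and 118 CPM, microglia and myeloid genes at 302 and 318 CPM against 287 and 328 CPM, and vascular genes at 165 and 204 CPM against 160 and 183 CPM. A score of 3 on any glial or vascular list was reached by 83 (24.6%) and 57 (25.8%) of the selected nuclei, against 22.6% and 29.5% of the others, and doublets were not removed. Hippocampal genes were at 449 and 539 CPM against 553 and 583 CPM, and thalamic genes at 161 and 183 CPM against 194 and 244 CPM in nuclei not selected.

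**Figure D2:**
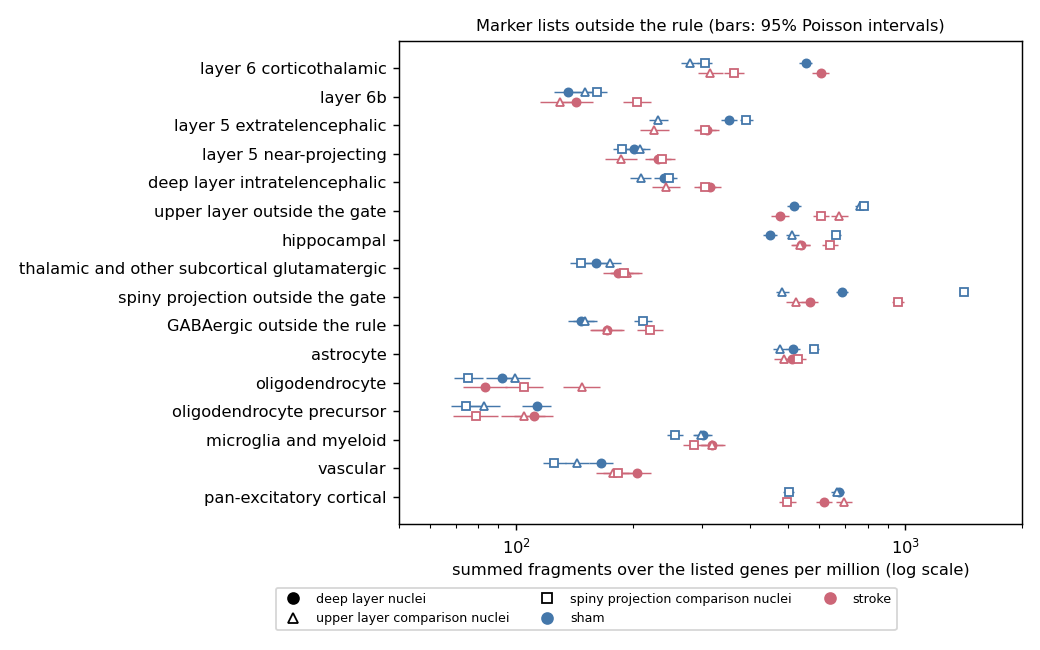
Summed CPM over marker lists that the rule did not use (log axis), for selected nuclei (filled circles), upper layer nuclei (triangles) and spiny projection nuclei (squares), sham in blue and stroke in red, with exact 95% Poisson intervals. The layer 6 corticothalamic list was separated from both comparison sets in both libraries (555 and 606 CPM against 280 and 315 CPM in upper layer nuclei), whereas the layer 6b and near-projecting lists were not.

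Deep and upper layer nuclei of the same library were then compared across all genes, so that a difference between the libraries did not enter the ratio. Genes with at least 1000 fragments gave the most precise values, and this group and its fold were chosen after the data were seen. Among 2568 such genes outside the genes of the rule and of the upper layer gate, 20 (0.779%) were at least 1.5-fold higher in deep layer nuclei in both libraries and 25 (0.974%) at least 1.5-fold lower, and none went 1.5-fold opposite ways. Of the higher genes Shb, Cntnap4, Rgs9, Cd6 and Atp10a would have stayed under 1000 fragments with both sets of nuclei at the lower of their levels. The same held among the lower genes for Rilpl1, Sntg2, Sestd1, Col19a1, Rnf144b, Glis1 and Lhfpl2. These genes passed the minimum only through the set in which they were high, so they had to differ. Pearson's r between the log2 ratios of both libraries was 0.54 across these genes and 0.28 across all 15104 genes tested, and genes are not independent replicates.

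Grik3 led the group, with ratios of 2.77 (2.49 to 3.08) in sham and 2.49 (2.16 to 2.88) in stroke. The kainate receptor subunit gene was cut in 72.4% and 78.7% of deep layer nuclei and in 48.1% and 42.9% of upper layer nuclei, and at most 76 of its sham and 29 of its stroke fragments came from 1 nucleus. Cntnap4, a neurexin-related adhesion protein, was at 118 and 106 CPM against 65.97 and 50.3 CPM (1.78-fold and 2.11-fold), and it passed the minimum only through deep layer nuclei. Zfpm2 was 1.71-fold (1.53 to 1.91) and 2.49-fold (2.13 to 2.91) higher, Thsd7b 1.64-fold and 1.91-fold, and the transcription factor gene Nfia 2.04-fold (1.86 to 2.25) and 1.68-fold (1.47 to 1.93), with 253 and 238 CPM against 124 and 142 CPM. Cdh18, a cadherin, was 2.12-fold and 1.57-fold higher. Kcnk2, a two-pore potassium channel, was 1.503-fold and 1.70-fold higher. Bcl11b was 2.16-fold (1.93 to 2.42) and 1.67-fold (1.41 to 1.99) higher. Shb, an adaptor of tyrosine kinase signaling, was 2.42-fold and 2.24-fold higher, but would have had 970 fragments with both sets at the lower level. Further genes of this group were Rgs9, which belongs to the spiny projection gate, Adcy5, Cd6, Tg, A830018L16Rik, Ryr3, Atp10a, Mctp1, Etl4 and Fndc3b.

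Part of this group was shared with striatal neurons. Ryr3, Shb, Rgs9, Bcl11b and Adcy5 were higher still in spiny projection nuclei in both libraries, which for Rgs9 was so by construction. Shb was at 214 and 200 CPM there and Adcy5, the striatal adenylyl cyclase, at 482 and 303 CPM. When the 28 sham and 18 stroke nuclei that had also reached the spiny projection score were left out, 15 of the 20 genes stayed at least 1.5-fold higher in both libraries. Rgs9 then fell to 1.504-fold and 1.34-fold, a fall that was built in because its own fragments entered the spiny projection score. Adcy5 fell to 1.65-fold and 1.47-fold, Ryr3 to 1.43-fold and 1.51-fold and Fndc3b to 1.44-fold and 1.45-fold. Kcnk2 stood at 1.43-fold in sham and 1.74-fold in stroke. In sham its level in spiny projection nuclei, 167 CPM, was above the 128 CPM of deep layer nuclei, but in stroke it was 95.6 against 121 CPM. Grik3 stood at 2.99-fold and 2.59-fold and Zfpm2 at 1.87-fold and 2.57-fold.

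The genes that were lower in deep layer nuclei included Cux1, a homeobox gene of upper layer neurons outside the gate. It was at 160 and 118 CPM against 354 and 292 CPM, ratios of 0.452 (0.41 to 0.49) and 0.404 (0.35 to 0.46). Unc5d, a netrin receptor of upper layer neurons, was at 137 and 131 CPM against 299.4 and 269 CPM. Pdzrn3, a ubiquitin ligase, was at 110 and 118 CPM against 220 and 222 CPM, and Lingo2, a leucine-rich repeat protein of the membrane, at 209 and 187 CPM against 328 and 311 CPM. Cacna2d1, a calcium channel subunit, was at 144 and 139 CPM against 240 and 213 CPM, and the kinase gene Prkca at 246 and 262 CPM against 394 and 397 CPM. Of the 25 genes, 20 stayed 1.5-fold lower in both libraries without the nuclei of the spiny projection score.

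**Figure D3:**
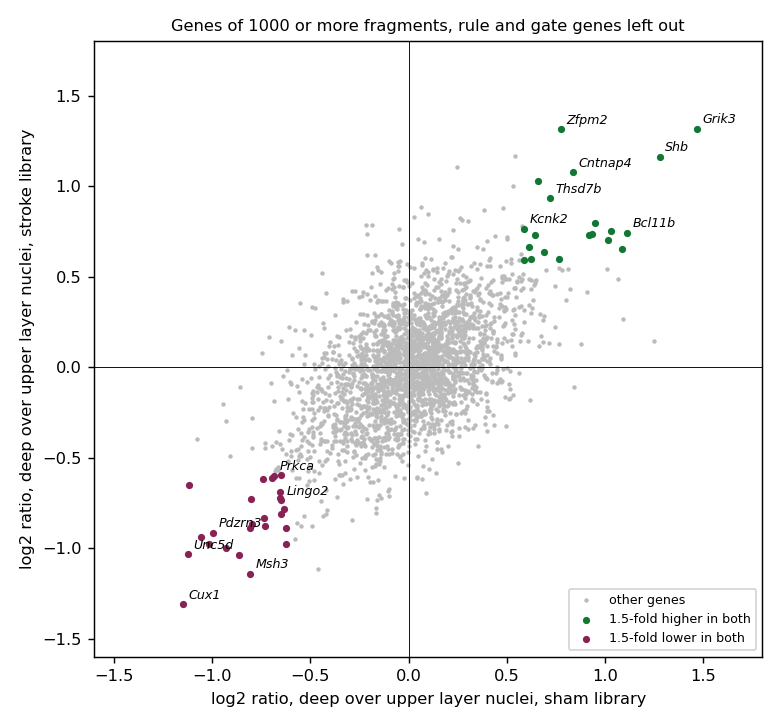
Log2 ratio of CPM, deep over upper layer nuclei, in the sham library (x axis) and the stroke library (y axis) for 2568 genes of at least 1000 fragments. The 20 genes that were 1.5-fold higher in both libraries lie in the upper right (green) and the 25 lower in both in the lower left (purple), with none in the opposite corners at that fold.

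At 2-fold in both libraries, among 15118 genes of at least 100 fragments, 19 (0.126%) were higher and 43 (0.284%) lower, or 14 and 39 without the genes that had gated the nuclei, while 3 went 2-fold opposite ways. With both sets of nuclei at the lower of their levels, 7 of the 14 and 18 of the 39 would have stayed under the minimum of 100 fragments, so these passed only through the set in which they were high and had to differ. Cutal, Sash3, Il1rl1 and Clec4g below and, on the lower side, Rhbdl2 and Neurod1 were among them. The 10 genes with the largest smaller ratio of the 2 libraries were Cutal, Grik3, Sash3, Il1rl1, Shb, Raet1e, Abcb11, Sla, Clec4g and Kirrel. Only Grik3, Shb, Raet1e, Sla and Kirrel among them had over 200 fragments in deep layer nuclei of both libraries together. Sla lies within Tg, so their fragments cannot be told apart. Sash3, a lymphocyte adaptor gene on chrX, had 81 and 36 fragments against 20 and 13. Over promoters alone a single log2 value was taken per gene, the smaller of both libraries or their mean where their directions differed. This value had no minimum of fragments. It turned below 0 for Sash3 (-0.24), Cutal (-0.047), Il1rl1 (-0.0265), Abcb11 (-0.32) and Clec4g (-0.24). On the lower side Rhbdl2, a rhomboid protease gene, had 26 and 12 fragments against 137 and 75, and Nrl, a retinal transcription factor gene, 33 and 18 against 103 and 52. Neurod1 was the 1 listed excitatory gene called, at 15 and 12 fragments against 61 and 25, ratios of 0.280 and 0.406.

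Genes chosen at 2-fold in one library were also read in the other. The 73 genes chosen as higher in sham had a median log2 ratio of 0.49 in stroke, with 84.9% above 0, and the 86 chosen as lower had -0.62. The 46 chosen as higher in stroke had 0.48 in sham, with 93.5% above 0, and the 59 chosen as lower had -0.62. Over all genes read the same way the medians were 0.014 in stroke and 0.0071 in sham. The medians in the other library thus went the same way, at less than the size at which the genes had been picked. Both libraries were gated on the same genes, so a difference that the gates bring in would recur in both. What part of the difference the gates bring in was not tested.

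Against spiny projection nuclei 81 of 15413 genes (0.526%) were 2-fold higher in both libraries and 46 (0.298%) lower, or 78 and 38 without gate genes. Slc17a7 (2.30-fold and 2.01-fold), Neurod6 (8.26-fold and 2.05-fold, from 10 and 12 fragments in spiny projection nuclei), Thsd7b (2.13-fold and 2.17-fold) and Zfpm2 (2.90-fold and 3.12-fold) were among the higher. Dpp4, a membrane peptidase gene, was at 338 and 281 fragments against 143 and 85, and Fap, a related peptidase gene, at 279 and 165 against 107 and 54. Tac1, the substance P precursor of striatal neurons, was lower at 23 and 11 fragments against 106 and 41, as was Ankk1, the neighbor of Drd2, at 16 and 7 against 169 and 76. Of 110575 tiles, 7482 (6.77%) were 2-fold more open than in spiny projection nuclei in both libraries and 7697 (6.96%) less open, in windows of 500 bp described next. Tac1, Ankk1 and Neurod6 passed the minimum only through the set in which they were high, as did 20 of the 78 higher genes, 16 of the 38 lower ones, 5739 of the more open tiles (76.7%) and 6074 of the less open ones (78.9%), so features of this kind had to differ.

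Accessibility was also read in 500 bp tiles, as Tn5 cut ends scaled to CPM in the same way. Of 91074 tiles outside the gating genes with at least 40 cut ends, 3642 (4.00%) were 2-fold more open in deep than in upper layer nuclei in both libraries and 4021 (4.42%) less open, while 1720 were 2-fold opposite ways. Only 5.63% of the more open tiles lay within 1 kb of a protein-coding start, against 25.9% of tested tiles, and their median distance to a start was 43343 bp against 13801.5 bp. The less open tiles were as far from starts, with 6.54% within 1 kb and a median of 41253 bp, so this held for called tiles of either direction. Fgfr2, a fibroblast growth factor receptor gene, held 13 more open tiles and 2 less open among 160 tested, Kcnma1, a calcium-gated potassium channel gene, 8 and 3 among 53, and Cadps, a vesicle priming gene, 6 and 0 among 25. Cacna1c, a calcium channel gene, held 9 less open tiles and 1 more open, Cux1 8 and 0, and Unc5d 7 and 1. Within the genes of the rule, where tiles were higher by construction, those 2-fold more open numbered 11 of 16 in Hs3st4, 8 of 8 in Foxp2, 7 of 10 in Syt6, 1 of 8 in Tle4, 1 of 6 in Tbr1 and 1 of 1 in Fezf2.

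Sequences are shown for 3 of the 6 most different tiles, those that held a motif searched here, as 300 bp windows on the plus strand of GRCm38 with matches to the motif of nuclear factor I (NFI, letters TTGGCA on either strand) in capitals. The first lies in an intron of Nrxn3, a presynaptic adhesion gene, at chr12:89040209-89040508. The second is intergenic and its tile lies 2336 bp from the start of Chl1, a neural adhesion gene, at chr6:103508186-103508485. The third lies in an intron of Sdk1, a synaptic adhesion gene, at chr5:142059558-142059857.
Nrxn3 intron: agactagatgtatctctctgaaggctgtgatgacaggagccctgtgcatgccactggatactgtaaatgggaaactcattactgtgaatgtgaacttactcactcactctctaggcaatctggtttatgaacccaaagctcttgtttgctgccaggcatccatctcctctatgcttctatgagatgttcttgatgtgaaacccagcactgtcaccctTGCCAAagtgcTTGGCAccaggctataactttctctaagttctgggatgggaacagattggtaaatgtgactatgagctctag
Chl1 upstream region: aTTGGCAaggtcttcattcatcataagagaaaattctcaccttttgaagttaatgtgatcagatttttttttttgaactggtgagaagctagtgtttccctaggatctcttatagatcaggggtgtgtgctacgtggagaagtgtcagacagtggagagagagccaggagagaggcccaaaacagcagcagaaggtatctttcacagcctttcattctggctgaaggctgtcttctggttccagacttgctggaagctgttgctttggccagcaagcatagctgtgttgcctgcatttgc
Sdk1 intron: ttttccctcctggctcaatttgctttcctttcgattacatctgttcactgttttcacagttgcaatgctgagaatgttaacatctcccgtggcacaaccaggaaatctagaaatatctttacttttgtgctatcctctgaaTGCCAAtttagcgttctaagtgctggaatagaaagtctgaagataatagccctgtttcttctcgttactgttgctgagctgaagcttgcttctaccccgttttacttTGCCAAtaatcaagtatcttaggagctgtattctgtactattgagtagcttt

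The Nrxn3 tile received 32 cut ends in sham and 27 in stroke deep layer nuclei, from 18 and 14 nuclei, against 1 cut end from 1 nucleus in upper layer nuclei of each library. The Chl1 tile received 23 and 33 cut ends from 14 and 16 nuclei, against 1 and 2 cut ends. The Sdk1 tile received 23 and 17 from 10 and 9 nuclei, against 2 and 1, with 0 and 2 in spiny projection nuclei. The other 3 of the 6 lay near Zcchc24 (43 and 24 cut ends against 2 and 1), near Camk1g (15 and 26 against 1 and 1) and in an intron of Hadha (48 and 19 against 4 and 1). Nuclei not selected also cut all 6, for example the Nrxn3 tile with 82 and 84 cut ends (0.61 and 0.86 CPM of cut ends, against 3.46 and 4.95 in deep layer nuclei). All 6 passed the minimum of 40 cut ends only through deep layer nuclei, in that they would have stayed under it with both sets at the lower level, so tiles of this kind had to differ. The same held for 2996 of the 3642 more open tiles (82.3%) and, through upper layer nuclei, for 3339 of the 4021 less open ones (83.0%), and the motif shares below are shares of these chosen tiles. Cut ends came at about 2 per nucleus, so they were not independent counts. Among the most different tiles on the lower side, one lay 21148 bp from the start of Cux2, with 3 and 1 cut ends in deep layer nuclei against 41 and 14 in upper layer nuclei. Cux2 had gated the upper layer nuclei, and only tiles over gating genes and their 2 kb upstream were left out. This tile was therefore not independent of the gate.

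Motifs were searched in all tiles by exact letters on both strands, leaving out chromosome 18. The NFI motif TTGGCA was found in 39.5% (37.9% to 41.2%) of tiles more open in deep layer nuclei, against 26.4% of tested tiles and 28.2% of the less open tiles. The T-box letters AGGTGTGA, the site class of Tbr1, were in 4.40% (3.75% to 5.13%) against 2.42% and 2.45%. The less open tiles held the E-box CAGATGG, the class bound by Neurod factors, in 24.7% (23.30% to 26.04%) against 15.2% of tested tiles and 19.5% of the more open tiles, and the POU octamer ATGCAAAT in 4.55% against 2.65% and 2.64%. The CUX letters ATCGAT were in 1.90% of more open and 0.749% of less open tiles against 1.496% of tested tiles, and the forkhead letters TGTTTAC in 4.28% and 6.38% against 4.79%. The cAMP response element (CRE) TGACGTCA was in 0.341% and 0.517% against 1.16%, and the Egr letters GCGTGGGCG in 1 of 3524 more open tiles against 0.649% of tested tiles. ROR (TAGGTCA), SOX (ACAATGG) and RFX (GTTGCCATG) letters were searched too. The AP-1 letters TGANTCA were in 20.4% of more open and 23.3% of less open tiles against 16.7% of tested tiles. Since called tiles lay farther from starts, the shares were also taken over tiles more than 1 kb from one. There NFI was at 40.2% against 29.7% of all such tiles, the T-box at 4.33% against 2.79%, and the E-box in less open tiles at 25.3% against 18.1%. AP-1 was there at 21.1% of more open tiles against 20.01%, a smaller gap than over all tiles, and at 24.5% of less open ones. Median GC content was 48.6% in more open, 47.4% in less open and 51.4% in tested tiles, and neighboring tiles are not independent. Nfia, which encodes an NFI factor, was 2.04-fold and 1.68-fold more accessible, as given above. A link of this gene to the motif shares was not tested. A match of letters is a description and was not tested as a bound site.

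**Figure D4:**
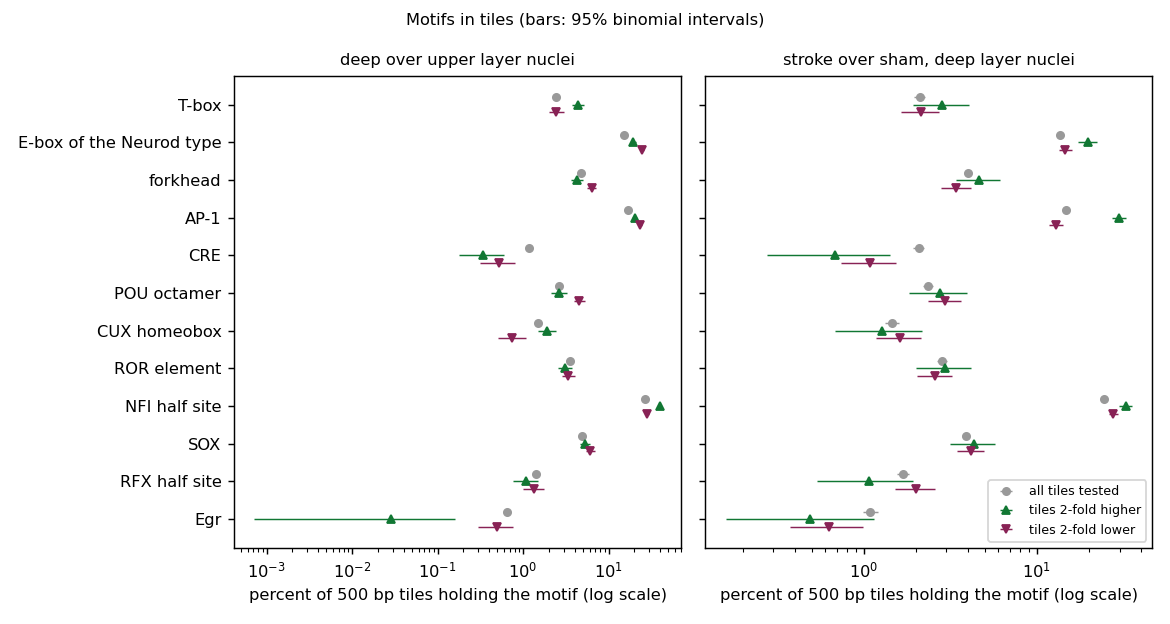
Percent of 500 bp tiles that hold each motif (log axis) among all tiles tested (grey), tiles 2-fold higher (green) and tiles 2-fold lower (purple), with exact 95% binomial intervals, for deep over upper layer nuclei (left) and stroke over sham in deep layer nuclei (right). The NFI motif stands at 39.5% in tiles more open in deep layer nuclei against 26.4% of tested tiles, and the AP-1 motif at 29.8% in tiles more open in stroke against 14.8%.

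Between conditions, 393 of 12651 genes with at least 100 fragments in deep layer nuclei (3.11%) were at least 1.5-fold higher in stroke and 590 (4.66%) at least 1.5-fold lower. The balance of directions depended on the scaling. The median log2 ratio of all genes was -0.081, and when CPM was replaced by a scaling to promoter fragments it became 0.049, with 743 genes higher and 281 lower, so that 72.6% of the called genes were higher in place of 39.98%. Other settings moved the balance the other way, with 20 higher and 357 lower over promoters alone and 360 higher and 946 lower in nuclei gated without Hs3st4. This scaling raises every ratio by the same amount, so higher calls could only be added by it and lower ones only lost. Fragments over promoters made up 17.6% of all fragments in sham and 16.1% in stroke deep layer nuclei, and 18.4% and 16.7% in nuclei not selected. Of the called genes 102 higher and 173 lower ones passed the minimum of 100 fragments only through the library in which they were high, meaning that with both libraries at the lower level they would have stayed under it, and such genes had to differ. The called genes were also short of fragments, with a median of 163 for higher and 195 for lower genes against 262 for all tested, and their median length was 64.3 kb and 19.7 kb against 33.6 kb.

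Of the 20 genes named next, 9 of the 10 higher (all but Mecom) and 8 of the 10 lower (all but Rec114 and Dupd1) were of this kind, so their counts are a description. The gene whose interval lay farthest above 1 was Bcl3, which encodes an atypical inhibitor of the NF-kB pathway. It had 32 fragments from 23 sham nuclei and 71 from 40 stroke nuclei, that is 6.93 and 26.05 CPM, a ratio of 3.76 (2.44 to 5.90). It was also higher in nuclei not selected, by 2.60-fold (2.38 to 2.85), and by 1.64-fold in upper layer nuclei. Without the nuclei that scored on a glial or vascular list its log2 ratio fell from 1.91 to 0.90. Skint6 and Skint5, long genes of the butyrophilin family, were 3.64-fold and 3.11-fold higher, and 2.41-fold and 2.66-fold higher in nuclei not selected. Mecom, a zinc finger transcription factor gene, had 198 and 255 fragments, a ratio of 2.18 (1.81 to 2.64), against 1.43 in nuclei not selected. Pdpn, which encodes podoplanin, went from 40 to 65 fragments (2.75-fold, 1.83 to 4.19) and Nos2, the inducible nitric oxide synthase gene, from 43 to 70 (2.76-fold, 1.86 to 4.13), with up to 13 of the 70 in 1 nucleus. Cutal, Dach2, Zfp217 and Cidea were the other genes of this set, at 2.72-fold to 3.25-fold, but over its promoter alone Cidea had a log2 ratio of -0.41.

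On the lower side Igsf5, an immunoglobulin superfamily gene, went from 116 fragments in 54 sham nuclei to 18 in 17 stroke nuclei, a ratio of 0.263 (0.151 to 0.434), while it was at 0.979 in nuclei not selected and 1.34 in upper layer nuclei, but also lower in spiny projection nuclei at 0.490 (0.322 to 0.725). Up to 20 of its sham fragments came from 1 nucleus. Fgf17, a fibroblast growth factor gene, went from 89 to 15 fragments, and Lrrc71 from 99 to 16. Pex6, a peroxisomal ATPase gene, went from 129 to 29 fragments, a ratio of 0.381 (0.245 to 0.574) against 0.767 in nuclei not selected. Rec114, a meiotic recombination gene, went from 217 to 58 fragments, with 30 of the 217 in 1 nucleus, and its log2 ratio of -1.14 became -0.023 without the nuclei with a glial or vascular score. The remaining genes of this set, B430306N03Rik, Ankrd26, Atp8b3, Dupd1 and Tspan17, had ratios of 0.276 to 0.468.

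**Figure D5:**
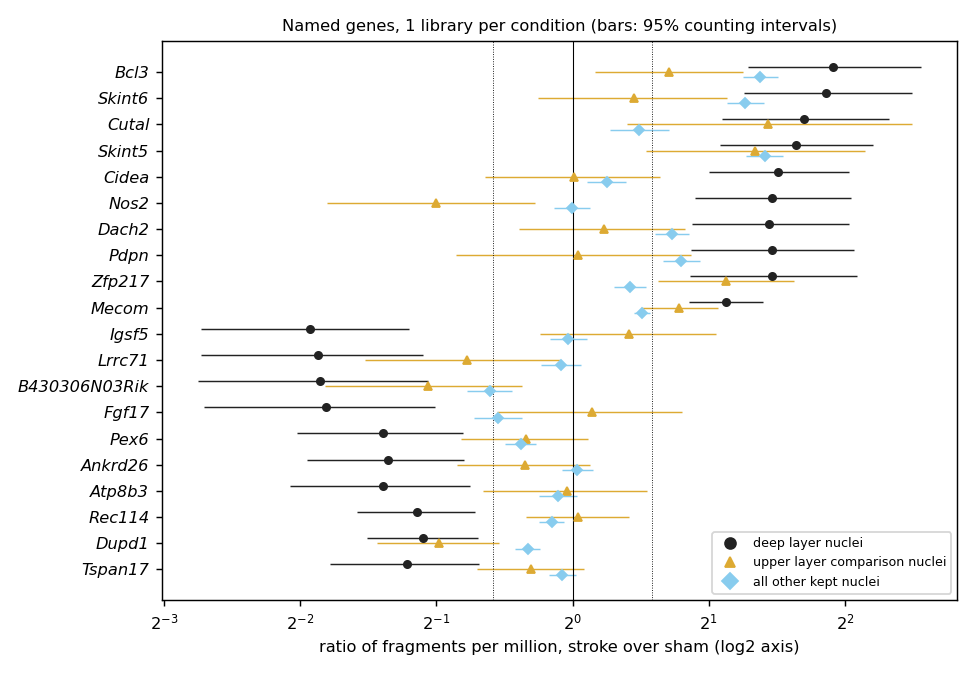
Ratio of CPM, stroke over sham (log2 axis), of the 20 named genes in deep layer nuclei (black circles), upper layer nuclei (yellow triangles) and all other kept nuclei (blue diamonds), with exact 95% counting intervals and dotted lines at 1.5-fold either way. Bcl3 was above 1 in all 3 sets (3.76, 1.64 and 2.60), whereas Igsf5 was below 1 in deep layer nuclei at 0.263 and at 1.34 and 0.979 in the others.

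By the same rule 343 of 12822 genes (2.68%) were called higher and 746 (5.82%) lower in upper layer nuclei, and 515 (3.75%) and 600 (4.37%) of 13742 in spiny projection nuclei. Among all kept nuclei not selected, where counts were far larger, 1102 of 18841 genes (5.85%) were 1.5-fold higher and 56 (0.297%) lower. All of these sets came from the same pair of libraries, so calls that they share are not independent of each other.

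The rule genes chose the nuclei in both libraries, so their ratios between conditions within these nuclei are conditioned by the selection and are given as a description, with Hs3st4 at 1.17 (1.10 to 1.24), Foxp2 at 0.858 (0.789 to 0.934) and Tbr1 at 0.697 (0.522 to 0.923). Of the deep layer transcription factors, 0 of 7 tested were called, 5 of the 7 were above 1, where 39.7% of all tested genes were, and their median log2 ratio was 0.23 against -0.081 for all genes. Zfpm2 was at 1.34 (1.21 to 1.49) and Bcl11b at 0.747 (0.662 to 0.841). Genes of neuronal activity were read next. Of 20 immediate early genes 1 was called lower, a share close to the 4.66% of all tested genes. It was Npas4, an activity-dependent transcription factor gene, going from 180 fragments (39.0 CPM) to 58 (21.3 CPM), a ratio of 0.546 (0.399 to 0.738), and it was at 0.571 in nuclei not selected and 0.732 in upper layer nuclei. Fos (85 and 36 fragments), Arc (203 and 91) and Bdnf (136 and 62) had ratios of 0.718, 0.760 and 0.773 and did not pass the fold, while Fosb and Junb were at 1.13 and 1.12, and the median log2 ratio of the list was -0.12 against -0.081 for all genes. Voltage-gated channel genes had a median of -0.23, with 13 of 17 below 1, where 60.3% of all tested genes were, and 1 of the 17 was called lower. Among those not called Scn8a, a sodium channel gene, was at 0.767, Kcnh7 at 0.733 and Kcnd2 at 0.791. The glutamate receptor and postsynaptic list had a median of -0.13, with 12 of 19 genes below 1 and none called. Promoter scaling adds the same amount to every log2 ratio and moves the median of all genes from -0.081 to 0.049. Under it Npas4 remained past the fold, whereas Ldha, Lamp5 and Prkcd below did not, and Pfkfb3 passed it.

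Stress genes showed no common direction. Of 16 heat shock and stress genes tested none was called, with a median log2 ratio of -0.018, and Hspa8, the constitutive chaperone gene, was at 0.743 (0.62 to 0.89). Of 12 hypoxia and glycolysis genes 1 was called higher and 1 lower, against 3.11% and 4.66% of all tested genes, a count too small to set the list apart. Hk2, a hexokinase gene, was at 88 and 85 fragments (19.0 and 31.2 CPM, 1.64-fold, 1.20 to 2.23) and also 1.62-fold higher in nuclei not selected, but over its promoter alone its log2 ratio was -0.71. Ldha, the lactate dehydrogenase gene, was at 186 and 73 fragments (ratio 0.665). Pfkfb3, a regulator of glycolysis, was at 1.39 (1.18 to 1.64), and Egln3, an oxygen sensor gene with 42 and 56 fragments, was under the minimum for a call at 2.26 (1.49 to 3.46). Of 10 genes of axon injury and regrowth 5 were above 1 and 5 below, with a median log2 ratio of 0.038, and 1 was called higher, against 3.11% of all tested genes. It was Socs3, an inhibitor of cytokine signaling, at 1.54 (1.02 to 2.31), against 1.72 in nuclei not selected. Socs3 passed the minimum for a call only through stroke, where it was high, so it had to differ and its ratio is a description. Atf3 was at 1.26 (0.928 to 1.69), Stat3 at 1.27 and Gap43, a growth cone protein gene, at 0.773 (0.635 to 0.937).

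A few genes of other cell types were called in the same nuclei. Slc1a3, an astrocyte glutamate transporter gene, went from 71 to 74 fragments (1.77-fold, 1.26 to 2.48) against 1.94-fold in nuclei not selected, and its log2 ratio of 0.82 became 0.17 without the nuclei with a glial or vascular score. Vcan, of oligodendrocyte precursors, was 1.52-fold higher. Over the whole lists, 1 of 5 astrocyte genes, 1 of 2 oligodendrocyte precursor genes and none of 4 microglia, 5 vascular or 2 oligodendrocyte genes tested were called higher, against 3.11% of all tested genes. The 5 vascular genes tested were all above 1, with a median log2 ratio of 0.38, as were the 4 microglia and myeloid genes, with a median of 0.21, against 39.7% of all tested genes, while Cldn5, of endothelial tight junctions, had 11 and 2 fragments. Of 5 genes of the upper layer gate tested, Rorb (1.56) was called higher and Lamp5 (0.630) lower, and of 4 genes of the spiny projection gate Drd2 (1.69) was called higher, but at -0.067 on the log2 scale in nuclei gated without Hs3st4. Of 5 thalamic genes Prkcd (0.615) was called lower, but its log2 ratio turned to 0.26 in nuclei gated again on counts thinned to 5000 fragments. That gate held 224 sham and 138 stroke nuclei, 275 of them shared with the main selection. These counts stand beside 3.11% of all tested genes called higher and 4.66% lower. The part of other cells in the stroke differences was not tested beyond these values.

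In 500 bp tiles, 1055 of 34509 (3.06%) were 2-fold more open in stroke deep layer nuclei and 2954 (8.56%) 2-fold less open. The more open tiles lay within 1 kb of a protein-coding start in 19.1% of cases and the less open ones in 23.0%, against 41.1% of tested tiles. The AP-1 motif TGANTCA, the site of Fos and Jun factors, was in 29.8% (27.0% to 32.7%) of the tiles more open in stroke against 14.8% of tested tiles and 12.9% (11.7% to 14.2%) of those less open. Over tiles more than 1 kb from a start these shares were 34.2% and 20.6% for more open and all tiles. The same comparison in upper layer nuclei gave 31.5% against 15.2%, and 34.5% against 21.1% away from starts, so the AP-1 share was not particular to deep layer nuclei. The NFI motif was above the 24.6% of tested tiles on both sides, with 32.5% (29.6% to 35.5%) of the more open tiles and 27.6% (26.001% to 29.3%) of the less open ones. Away from starts it was at 37.5% and 30.8% against 30.8% of all such tiles, and in upper layer nuclei 28.1% of more open tiles held it against 23.2% of tested tiles. Of the more open tiles 854 (80.9%) and of the less open 2394 (81.04%) passed the minimum only through the library in which they were high, so all these shares are of tiles chosen in that way. Median GC content was 49.8% in more open and 54.2% in tested tiles.

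Of the 6 most different tiles that were more open in stroke, 3 held an AP-1 match, and 2 of these lie in introns and are printed on the plus strand of GRCm38, with AP-1 (TGANTCA) and, in the second, the E-box (CAGATGG) and the NFI motif (TGCCAA here, its other strand) in capitals. The first lies in an intron of Kcnd3, a potassium channel gene, at chr3:105590976-105591275, and the second in an intron of the noncoding gene Gm34983, at chr10:99480649-99480948, whose nearest coding start is that of Dusp6, 217519 bp away.
Kcnd3 intron: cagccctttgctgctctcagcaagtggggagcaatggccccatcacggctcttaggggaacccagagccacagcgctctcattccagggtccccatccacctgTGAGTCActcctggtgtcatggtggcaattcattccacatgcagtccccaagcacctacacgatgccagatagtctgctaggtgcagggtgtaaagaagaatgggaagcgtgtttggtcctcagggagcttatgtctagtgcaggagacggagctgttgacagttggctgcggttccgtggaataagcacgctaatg
Gm34983 intron: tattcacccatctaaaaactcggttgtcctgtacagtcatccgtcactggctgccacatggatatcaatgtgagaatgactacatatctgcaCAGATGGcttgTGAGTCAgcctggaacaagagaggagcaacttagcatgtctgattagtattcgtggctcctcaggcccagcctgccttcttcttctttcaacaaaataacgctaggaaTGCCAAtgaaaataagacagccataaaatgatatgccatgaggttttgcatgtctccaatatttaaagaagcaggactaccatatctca

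All 6 of these tiles passed the minimum only through stroke. The Kcnd3 tile went from 7 cut ends in 4 sham nuclei to 33 in 16 stroke nuclei, a ratio of 7.99 (0.758 and 6.06 CPM). It was at 0.856 and 2.17 CPM in upper layer nuclei, from 9 and 10 cut ends, and at 0.977 and 1.43 CPM in nuclei not selected, from 132 and 140, so it was higher in stroke there too. The Gm34983 tile went from 12 cut ends in 6 nuclei to 40 in 18, a ratio of 5.65 (1.30 and 7.34 CPM), against 2.38 and 3.90 CPM in upper layer nuclei, from 25 and 18 cut ends, and 2.36 and 3.37 CPM in nuclei not selected. The tile in an exon of Dapk1, a kinase gene of cell death pathways, went from 15 cut ends in 10 nuclei to 46 in 22, and those in introns of Cntnap5a, Fmnl2 and Asap1 from 8 to 40, 9 to 36 and 11 to 38, without an AP-1 match. Kcnd3 as a whole gene stayed near 1 at 1.07 (0.97 to 1.19), with 950 and 602 fragments.

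Of the 6 most different tiles that were less open in stroke, 5 had no cut end there. These passed the minimum of 40 cut ends only through sham, whose deep layer nuclei held more fragments, so tiles of this kind had to differ and are given as counts. Tiles in an exon of Pde4c, in an intron of Snx29, near Slc22a23, in an exon of Rtn4r and in an intron of Ip6k2 went from 41 to 44 cut ends, in 17 to 24 sham nuclei, to 0 in stroke, which is below the floor of 3 counts used here, and since cut ends come in pairs the uncertainty is wider than that floor. The Snx29 tile was also lower in nuclei not selected, at 906 and 163 cut ends (6.70 and 1.67 CPM), and so was the Pde4c tile at 296 and 97. The Rtn4r tile, within the Nogo receptor gene, was at 485 and 187 in nuclei not selected and at 70 and 22 in upper layer nuclei. All of these counts rest on 1 library per condition.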

How the data were processed

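Nuclei of sham and stroke brains were profiled by 10x scATAC-seq, and the authors aligned and deduplicated the reads with Cell Ranger ATAC 2.1.0 on mm10. The deposited files hold fragments with their read-pair counts and, per barcode, fragment counts and a cell call. Barcodes called as cells with 1000 to 100000 fragments in peaks, and over 20% of fragments there, were kept, and no doublet caller was run. Fragments were summed over GENCODE M21 gene bodies with 2000 bp upstream and over 500 bp tiles (cut ends), and divided by total fragments or cut ends of the same nuclei, times 1000000 (CPM). The files held 76959104 sham and 96465679 stroke fragments. The precision of values for the selected nuclei rests on their own 4619960 and 2725747 fragments. Intervals are exact Poisson, Clopper-Pearson or conditional binomial at 95%. A gene or tile was called by fold (2-fold in both libraries between cell sets, 1.5-fold for genes and 2-fold for tiles between conditions), given at least 100 fragments or 40 cut ends. Named were rule genes, list genes past the fold or with most fragments, and the 10 genes and 6 tiles each way with the largest ratios or farthest interval bounds. The members, gene lists and comparisons were chosen with earlier results of these data known. Scripts were checked on simulated counts. Alternative gates, scalings and minimums are given in the closing section. Analyses used Python 3.11.15, numpy 2.4.6, scipy 1.17.1, pandas 2.3.3 and pysam 0.24.0, and tile sequences were read from GRCm38.p6. Results of a few genes are not reported here.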

Additional observations from a re-analysis of the deposited data

Results flagged for a closer look

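The listed genes and those named between conditions were searched where both sets of nuclei reached the minimum of 100 fragments. Among these, Nos2 was the 1 past 1.5-fold in opposite directions in deep and upper layer nuclei. Over all genes, 13 of the 393 called higher and 12 of the 590 called lower in deep layer nuclei were called the other way in upper layer nuclei. The same way were called 58 and 59. Of all genes tested in upper layer nuclei 2.68% were called higher and 5.82% lower. Nos2 was 2.76-fold (1.86 to 4.13) higher in stroke in deep layer nuclei, with 43 and 70 fragments, and at 0.498 (0.286 to 0.825) in upper layer nuclei, with 87 and 19. Up to 13 of the 70 fragments came from 1 nucleus, and the ratio was 0.996 in nuclei not selected. With both libraries at the lower level it would have had 68.4 fragments in deep and 62.3 in upper layer nuclei, so it passed the minimum of 100 only through stroke in the former and only through sham in the latter. The difference between both sets of nuclei was not tested, since each condition was 1 library.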

How the results depend on the processing

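No paired analysis was possible because sham and stroke were each a single pooled library. The ratio of shares ranged from 0.524 (over all called barcodes, a denominator added after seeing the data) and 0.734 (score of at least 4) to 0.923 over 13 alternatives. Over promoters alone, 20 genes were higher and 357 lower in stroke, and 7 and 6 were higher and lower in deep than upper layer nuclei. Scaling to promoter fragments gave 743 higher and 281 lower in stroke. A gate without Hs3st4 gave 946 lower. Without the GABA drop 34 genes were higher in deep layer nuclei, and without nuclei of a glial or vascular score 30 genes and 2321 tiles were. A minimum of 50 fragments gave 739 higher in stroke, and 47 higher and 66 lower in deep layer nuclei. A minimum of 200 gave 140 and 287 in stroke, and 10 and 19. A minimum of 80 cut ends gave 667 and 668 tiles. Settings added after seeing the data gave 202 and 259 genes at 1.5-fold between deep and upper layer nuclei, and 41 and 44 at 2-fold between conditions. Log2 ratios turned for Prkcd (0.26 in nuclei gated after thinning) and Drd2 (-0.067 in the gate without Hs3st4), and over promoters alone for Cidea (-0.41) and Hk2 (-0.71) between conditions. Between deep and upper layer nuclei they turned over promoters alone for Abcb11 (-0.32), Clec4g (-0.24), Cutal (-0.047), Il1rl1 (-0.0265), Samd3 (0.0495) and Sash3 (-0.24). The values between deep and upper layer nuclei were the smaller of both libraries, or their mean where directions differed, without a minimum of fragments. The causes of these changes were not tested. Of 308 values of 22 genes between deep and upper layer nuclei 288 stayed within a fixed log2 margin of the main value. Of 410 values of 30 genes between conditions 362 did. This margin was the same for all genes and was not a counting interval. Part of this agreement was fixed in advance. A further quality filter of the study methods kept the same 558 nuclei, so its values could not move. Scaling to promoter fragments shifted all genes of a comparison by a constant smaller than the margin. Genes under 100 fragments were too shallow to be called.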
